A study of Mus musculus with 22 samples.

Results

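The uroplakins are the proteins of the rigid plaques that cover the luminal face of the bladder lining. The 5 family genes listed for description, Upk1a, Upk1b, Upk2, Upk3a and Upk3b, were taken by symbol out of 24421 genes in each of 22 mouse RNA-seq libraries. No measured value entered their choice, but they were chosen with earlier results of these data known. Polysome, subpolysome and total RNA libraries were made from primary bladder urothelial organoids, epithelial cultures grown in 3 dimensions. They were labelled ARID1A KO (3 libraries per kind of RNA) or ARID1A WT (3 libraries per kind of RNA). Polysomes are mRNAs carrying several ribosomes, separated on a gradient from the subpolysome material, which carries few or none. Total RNA of bladder cancer organoids, described as isogenic, was labelled ARID1A KO (2 libraries) or ARID1A WT (2 libraries). The protein of Arid1a belongs to BAF (SWI/SNF), a complex that moves nucleosomes, and binds DNA. The sources used here do not give how the gene was inactivated, the age and strain of the animals, or whether replicates came from separate animals or cultures. The p-values therefore reflect only library-to-library spread, part or all of which may be technical.

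Upk1a and Upk1b belong to the tetraspanins, multi-pass membrane proteins, and Upk2, Upk3a and Upk3b are their single-pass partners. Upk1a pairs with Upk2 and Upk1b with Upk3a in the endoplasmic reticulum, and the pairs then assemble into plaque particles that travel to the apical surface in fusiform vesicles. Upk3b is another partner of Upk1b, and is also known from the mesothelium. Uroplakins are standard markers of differentiated urothelium, above all of its umbrella cells, while Krt5 and Trp63 mark the basal layer.

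The bases upstream of the start sites of Upk1a, Upk3a and Upk3b are shown, since promoter sequences were available for these 3 of the 5 members. Whether the KO against WT difference arises at the promoters was not tested. They were read 5′ to 3′ on each gene's own strand from the RefSeq promoter table for GRCm38.p6, without any base inside the GENCODE gene. They lie at chr7:30612848-30612984 on the minus strand for Upk1a, chr15:85016891-85017140 on the plus strand for Upk3a, and chr5:136038246-136038495 on the plus strand for Upk3b. Capitals mark matches, on either strand, to the 8 motifs searched.
Upk1a: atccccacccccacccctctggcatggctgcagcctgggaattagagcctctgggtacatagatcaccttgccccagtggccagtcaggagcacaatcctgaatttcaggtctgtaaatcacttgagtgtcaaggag
Upk3a: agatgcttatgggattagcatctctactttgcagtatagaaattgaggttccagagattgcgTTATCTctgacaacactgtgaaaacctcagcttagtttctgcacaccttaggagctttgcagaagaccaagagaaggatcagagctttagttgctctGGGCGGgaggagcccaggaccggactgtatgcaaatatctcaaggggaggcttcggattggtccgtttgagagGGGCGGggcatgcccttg
Upk3b: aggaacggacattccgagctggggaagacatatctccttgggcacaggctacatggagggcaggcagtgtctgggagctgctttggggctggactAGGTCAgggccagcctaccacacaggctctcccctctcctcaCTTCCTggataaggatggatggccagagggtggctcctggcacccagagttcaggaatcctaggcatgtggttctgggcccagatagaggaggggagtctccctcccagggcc

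Upk3a held AGATAA, a motif of GATA factors that 10.3% of 27025 promoters held in windows of 250 bases. Upk3a also held the GC box GGGCGG at 2 places, which was in 32.9% of the promoters. Upk3b held AGGTCA, a core element of nuclear receptors found in 13.8%, and AGGAAG, an element of ETS factors found in 29.2%. The other motifs searched had no match in these windows. They were TATAAA, the TATA box (in 13.0% of promoters), and TGANTCA, the AP-1 motif (6.87%). They also included TGTTTAC for FOXA factors (3.09%) and, for grainyhead factors, AACCNGTT (1.71%). The Upk1a window held none of the 8, and neither did the 113 bases nearer its RefSeq start that GENCODE places inside the gene. A match describes the letters and shows no binding.

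The members lie on 5 chromosomes of GRCm38, the build of the counts. In GENCODE, Upk1a spans chromosome 7, 30603092 to 30612847, and Upk1b chromosome 16, 38773184 to 38800328, both on the minus strand. Upk2 spans chromosome 9, 44452715 to 44454976, on the minus strand. Upk3a spans chromosome 15, 85017141 to 85022547, and Upk3b chromosome 5, 136038496 to 136046487, both on the plus strand. None overlaps another annotated gene.

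The libraries held 39245248 to 76594655 counts. Levels are given as CPM, counts over each library's total scaled by TMM factors over all libraries, so they are relative to the other mRNAs of a fraction. Subpolysome libraries had TMM factors of 0.6044 to 0.7116, against 1.059 to 1.2621 in the others. Arid1a RNA, the check of the labels, was 74.9, 74.8 and 83.8 CPM in KO total RNA, against 113.9, 130.3 and 116.3 CPM in WT total RNA. The log2 difference there was -0.60 (SE 0.06, adjusted p = 5.68e-06 by edgeR). In polysomes Arid1a was at 13.9 to 23.6 CPM in KO and 21.6 to 34.6 CPM in WT, so the libraries overlapped (log2 -0.48, SE 0.20, adjusted p = 0.0817 by edgeR). In subpolysomes it was at 62.4 to 75.3 CPM in KO and 55.8 to 62.8 CPM in WT (log2 0.19, SE 0.12, adjusted p = 0.276 by edgeR). In the cancer set Arid1a went against 2 labels. It was at 174.7 and 56.7 CPM in the libraries labelled KO 1 and 2, and at 66.9 and 196.3 CPM in those labelled WT 1 and 2. Primary organoids carried the basal marker Krt5 at 8880 ± 465 CPM in KO and 7760 ± 841 CPM in WT total RNA (SD, n = 3 each).

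**Figure D1:**
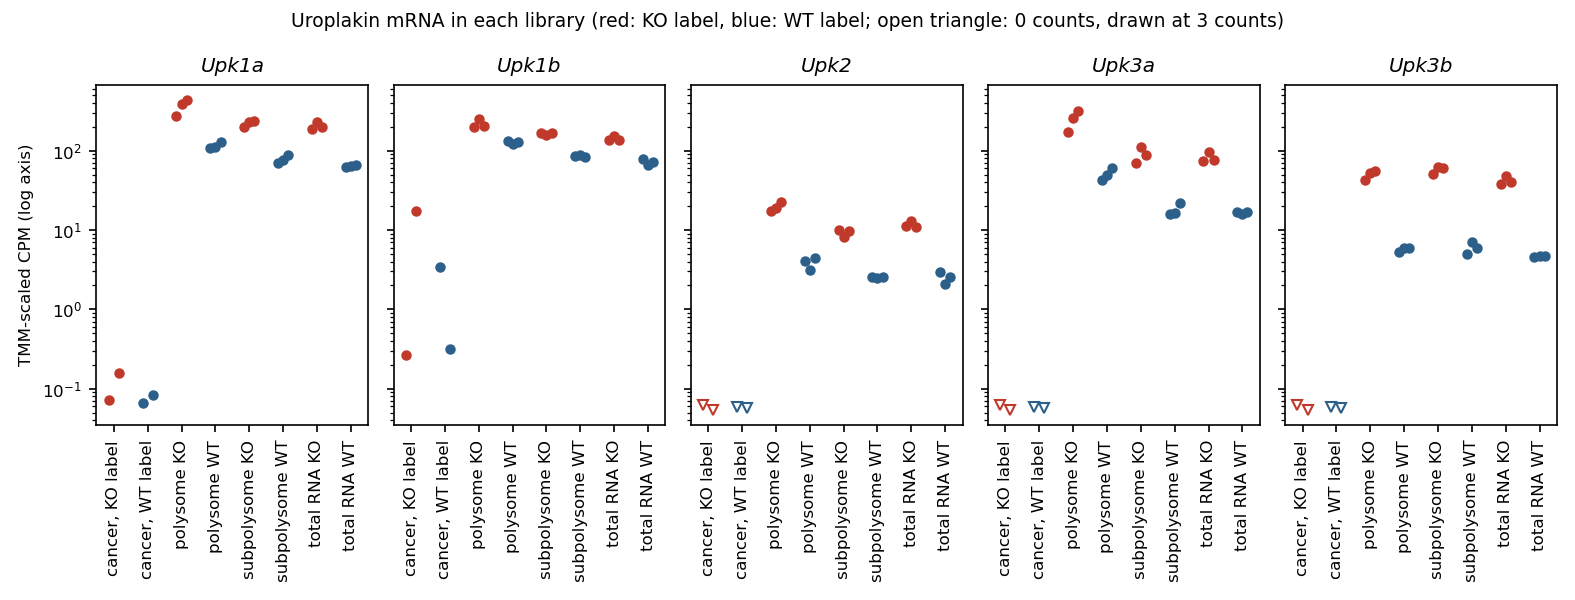
TMM-scaled CPM of each uroplakin (log axis) in every library, by group; points are libraries, and open triangles are libraries with 0 counts, drawn at 3 counts. For each gene the KO points of a fraction lie above the WT points of that fraction in primary organoids, and the cancer points lie lowest.

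All 5 uroplakins were higher in KO than in WT organoids in total RNA, polysomes and subpolysomes, with KO and WT libraries never overlapping. The share of all genes without such overlap was not counted, so here and below the lack of overlap is a description only. In total RNA the rise lay between 2.02-fold for Upk1b and 9.29-fold for Upk3b. All 5 passed edgeR's quasi-likelihood test at a Benjamini-Hochberg adjusted p under 0.05. Of all 13198 genes tested in total RNA, 27.0% were called higher in KO and the median log2 change was 0.003. In bulk RNA, more cells of a type and more RNA per cell cannot be told apart.

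Upk1a had 186, 232 and 199.9 CPM in KO total RNA, against 62.8, 64.4 and 65.3 CPM in WT total RNA. Every KO library was above every WT library (3.28-fold, log2 1.71, SE 0.07, adjusted p = 6.67e-09). Its partner Upk2 had 11.4, 13.0 and 10.8 CPM in KO, against 3.00, 2.09 and 2.56 CPM in WT. The groups were apart here too (4.68-fold, log2 2.23, SE 0.14, adjusted p = 1.28e-07), on 1014 to 1180 counts per KO library and 166 to 266 per WT library.

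Upk1b, the tetraspanin that can leave the endoplasmic reticulum without a partner, changed least. It had 135, 155 and 135 CPM in KO total RNA, against 77.8, 66.3 and 71.1 CPM in WT (log2 1.01, SE 0.07, adjusted p = 3.61e-07). Upk3a, its plaque partner, had 74.7, 97.6 and 77.0 CPM in KO, against 16.7, 16 and 17 CPM in WT. Upk3a rose 5.12-fold (log2 2.36, SE 0.09, adjusted p = 5.13e-09), so both partners rose but by unequal amounts: the 95% interval of the log2 change was 2.15 to 2.56 for Upk3a and 0.86 to 1.17 for Upk1b.

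Upk3b moved most. It had 38, 48.7 and 40.4 CPM in KO total RNA, against 4.59, 4.68 and 4.67 CPM in WT total RNA. The WT libraries lay within a narrow band, and every KO library was several times above it (log2 3.22, SE 0.10, 95% interval 3.01 to 3.43, adjusted p = 8.01e-10). Among the 13198 genes tested, 99.5% had a smaller log2 change than Upk3b, 98.8% a smaller one than Upk3a and 92.7% a smaller one than Upk1b.

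Compared per length, the family was mostly Upk1a, Upk1b and Upk3a in both genotypes. Of the summed per-kilobase level in total RNA, Upk1a made up 45.9% to 47.3% in KO and 43.8% to 47.7% in WT libraries. Upk1b made up 21.0% to 22.7% in KO and 33.4% to 37.0% in WT, and Upk3a 23.7% to 25.3% in KO and 15.2% to 15.7% in WT. Upk1b per length was 0.829 to 0.947 of Upk3a in KO and 2.17 to 2.44 of Upk3a in WT. With exon bases inside the RefSeq genes these ratios were 0.882 to 1.01 in KO, with 2 of 3 libraries below 1, and 2.31 to 2.59 in WT.

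Upk2 was 3.34% to 3.67% of the per-length sum in KO and 2.03% to 2.75% in WT. Upk1a per length was 12.5 to 14.1 times Upk2 in KO and 16 to 23.5 times Upk2 in WT. Upk3b was 3.77% to 3.91% in KO and 1.29% to 1.40% in WT. Its level per length depends most on the annotation among the members: GENCODE gives it 3530 exon bases, of which 2036 lie inside the RefSeq gene. Dividing the same counts by those bases gives 20.8 in KO and 2.28 CPM per kilobase in WT, in place of 12 and 1.32. Reads were not recounted, so these values hold only if no read was counted outside those bases. A change of length alone cannot alter the difference between genotypes.

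In polysomes, where 14.9% of 13066 genes were called higher in KO, all 5 uroplakins rose. Upk1a had 275, 384 and 436 CPM in KO polysomes, against 108, 112 and 127 CPM in WT polysomes (log2 1.68, SE 0.16, adjusted p = 4.33e-07). Upk2 had 17.5, 18.9 and 22.4 CPM in KO, against 4.10, 3.17 and 4.38 CPM in WT (log2 2.36, SE 0.17, adjusted p = 1.92e-08). Upk1b, again the least changed, had 199.0, 254 and 202 CPM in KO, against 134, 122 and 128 CPM in WT (log2 0.80, SE 0.13, adjusted p = 0.000223).

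Among the Upk1b partners, Upk3a had 173, 256 and 314 CPM in KO polysomes, against 42.8, 49.9 and 61.3 CPM in WT polysomes (log2 2.30, SE 0.19, adjusted p = 1.10e-07). Upk3b had 42.1, 52.9 and 55.2 CPM in KO, against 5.23, 6 and 5.95 CPM in WT (log2 3.16, SE 0.15, adjusted p = 3.57e-10). KO and WT polysome libraries were apart for both genes.

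In subpolysomes, where 11% of 12645 genes were called higher in KO, the same 5 genes rose. Upk1a had 199, 229 and 234 CPM in KO, against 70.1, 76.0 and 87.7 CPM in WT (log2 1.52, SE 0.11). Upk2 had 10.0, 8.20 and 9.65 CPM in KO, against 2.56, 2.47 and 2.53 CPM in WT (log2 1.89, SE 0.27), on only 71 to 86 counts per WT library. The Upk1b level was 165, 156 and 169 CPM in KO, against 85.9, 89.1 and 84.5 CPM in WT (log2 0.93, SE 0.10).

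The remaining partners of Upk1b stood apart in the same way in subpolysomes. Upk3a had 70.7, 111 and 87.1 CPM in KO, against 15.8, 16.3 and 21.8 CPM in WT (log2 2.33, SE 0.16). Upk3b had 50.1, 62.9 and 61.0 CPM in KO, against 5, 7 and 5.94 CPM in WT (log2 3.29, SE 0.16). The adjusted p of the 5 members in subpolysomes ran from 9.12e-14 for Upk3b to 1.01e-05 for Upk2 by edgeR.

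**Figure D2:**
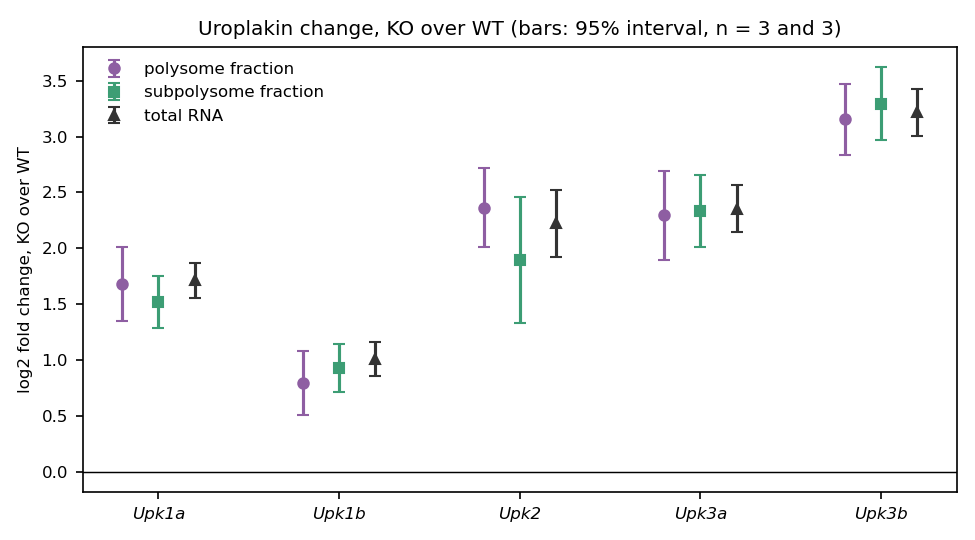
Log2 fold change of each uroplakin, KO over WT, in polysomes, subpolysomes and total RNA; bars are 95% intervals of the edgeR fit (3 KO and 3 WT libraries each). Upk1b lies lowest, at 0.80 to 1.01, and Upk3b highest, at 3.16 to 3.29, in every kind of RNA.

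Within a genotype, polysomes were set against subpolysomes, and 4 of the 5 uroplakins were relatively richer in polysomes. In KO, where 31.7% of 13392 genes were called higher in polysomes, Upk3a rose by a log2 change of 1.44 (SE 0.20, adjusted p = 1.74e-06) and Upk2 by 1.06 (SE 0.18, adjusted p = 2.55e-05). Upk1a rose by 0.70 (SE 0.15, adjusted p = 0.000265) and Upk1b by 0.40 (SE 0.11, adjusted p = 0.00437). Upk3b had a log2 difference of -0.24 (SE 0.14, 95% interval -0.53 to 0.06, adjusted p = 0.153).

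In WT, where 32.8% of genes were called higher in polysomes, these 4 genes passed too. Upk3a rose by 1.46 (SE 0.20, adjusted p = 1.90e-06), Upk2 by 0.57 (SE 0.19, adjusted p = 0.0134), Upk1a by 0.52 (SE 0.15, adjusted p = 0.00385) and Upk1b by 0.51 (SE 0.11, adjusted p = 0.000464). The Upk2 call ended without WT polysome replicate 3 (log2 0.48, adjusted p = 0.0604). Upk3b had a log2 difference of -0.11 (SE 0.15, 95% interval -0.43 to 0.21, adjusted p = 0.547). With library totals in place of TMM the median of all genes moved to 0.90 in KO and 0.84 in WT, and Upk3b then read 0.64 in KO and 0.72 in WT, below that median in both.

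The 2 partners of Upk1b differed in this measure within each same-numbered pair of libraries. Whether same-numbered libraries came from the same gradient is not given in the sources used here. The log2 ratio of polysome to subpolysome was 1.29, 1.21 and 1.85 for Upk3a in KO pairs 1 to 3. It was 1.44, 1.61 and 1.49 in WT pairs 1 to 3. For Upk3b it was -0.25, -0.25 and -0.15 in KO and 0.06, -0.22 and 0.00 in WT. Upk3a was above Upk3b in 6 of 6 pairs, by 1.38 to 1.99 with a median of 1.51. No ratio of Upk3a overlapped any of Upk3b. This was the widest median gap between members. Upk3a was also above Upk1a and Upk1b in 6 of 6 pairs, and Upk1a, Upk1b and Upk2 were each above Upk3b in 6 of 6. Among all genes tested, 40.8% in KO and 45.6% in WT had a lower polysome to subpolysome value than Upk3b. For Upk3a the shares were 92.5% in KO and 91.8% in WT.

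**Figure D3:**
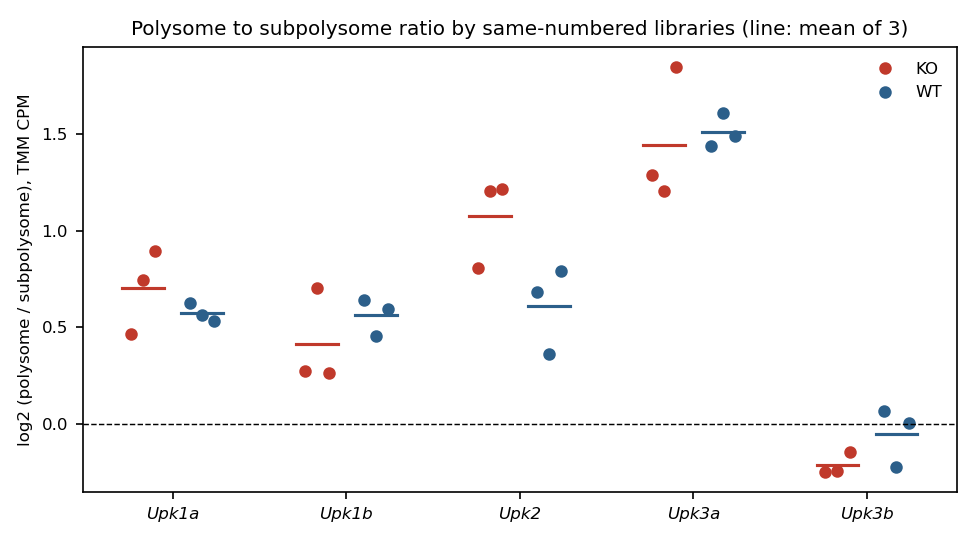
Log2 ratio of polysome to subpolysome CPM for each uroplakin, 1 point per same-numbered pair of libraries, with the mean of 3 as a line. Upk3a lies at 1.21 to 1.85 and Upk3b at -0.25 to 0.06.

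The polysome to subpolysome ratio was then compared between KO and WT as an interaction. In edgeR 0.00747% of 13392 genes (1 gene) passed, 13 with the replicate number as a block, and 758 had an unadjusted p under 0.05. None of the 5 uroplakins was among them at either threshold or by DESeq2. The KO minus WT log2 difference was 0.18 for Upk1a (95% interval -0.24 to 0.61), -0.12 for Upk1b (-0.45 to 0.21) and 0.49 for Upk2 (-0.06 to 1.03). It was -0.02 for Upk3a (-0.59 to 0.55) and -0.12 for Upk3b (-0.56 to 0.31). Each interval takes in 0 and differences on both sides of it, so equal ratios were not shown.

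Polysomes were also set against total RNA, which shares the polysome libraries with the previous comparison. In KO, where 32.7% of 13507 genes were called higher in polysomes, Upk3a rose by 1.56 (SE 0.17), Upk1a by 0.81 (SE 0.13), Upk2 by 0.73 (SE 0.15) and Upk1b by 0.61 (SE 0.10). In WT, where 33.1% were called higher, Upk3a rose by 1.59 (SE 0.18), Upk1a by 0.81 (SE 0.13), Upk1b by 0.80 (SE 0.10) and Upk2 by 0.57 (SE 0.16). The highest adjusted p of these 8 values was 0.00509, by edgeR.

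Upk3b was again the exception, with a log2 difference of 0.23 in KO (SE 0.11, adjusted p = 0.0823) and 0.26 in WT (SE 0.12, adjusted p = 0.0692). With the replicate block, Upk3b in KO had 0.23 (adjusted p = 0.0449 by edgeR), and it passed as well without KO total replicate 2 or without KO polysome replicate 1. For the KO against WT difference of the polysome to total RNA ratio, 0.0% of 13507 genes and 0 of 5 uroplakins passed in edgeR. DESeq2 called 0 genes, and 263 genes had an unadjusted p under 0.05, none of them a uroplakin.

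Over the 8 groups, the order of the TMM-scaled levels was the same for Upk1a, Upk1b and Upk3a: KO polysomes, KO subpolysomes, KO total RNA, WT polysomes, WT subpolysomes, WT total RNA, and then cancer. Neighbours whose libraries overlapped were KO subpolysomes and KO total RNA for Upk1a, and both subpolysomes and total RNA within KO and within WT for Upk3a. For Upk2, KO total RNA came before KO subpolysomes, and WT total RNA and WT subpolysomes overlapped. On that scale Upk3b had its highest mean in KO subpolysomes (58.0 ± 6.89 CPM), where the libraries overlapped those of KO polysomes (50.1 ± 7.01 CPM, SD, n = 3 each). The order of fractions depends on the scaling. On CPM of library totals, subpolysomes came after total RNA within each genotype for all 5 members, and Upk3b was highest in KO polysomes, at 58.4 ± 6.39 CPM, before KO total RNA at 53.1 ± 7.12 CPM and KO subpolysomes at 37.4 ± 5.21 CPM (SD, n = 3 each). Upk1b was then lower in KO subpolysomes (105 CPM) than in WT polysomes (142 CPM).

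As a description, the members' patterns were compared over the 18 primary libraries, which share their genotype and fraction structure. On log2(CPM + 1), Pearson's r between Upk1a and Upk3a was 0.983, with 0.978 over the KO libraries alone and 0.963 over the WT libraries alone. Upk3b had r of 0.919 with Upk1a over 18 libraries, but 0.378 within KO and 0.552 within WT, its highest with any member. Within KO and within WT, its r was 0.359 and 0.484 with Upk1b and 0.279 and 0.359 with Upk3a. With Upk2 it was -0.128 within KO and 0.177 within WT. The within-genotype values of Upk3b were thus the lower ones on the TMM scale. Each spans 3 fractions, whose order depends on the scaling, and r on CPM of library totals was not computed.

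The genes most like each member in that measure, among 10385 compared, were Prss8, Bik and Clic3 for Upk1a (r 0.988, 0.983 and 0.977). Prss8 is a membrane-anchored serine protease of epithelia. They were Ndrg2, Ifit2 and Ces2b for Upk2 (r 0.983, 0.981 and 0.977) and Gsdmc3, Bcl2l14 and Tmprss2 for Upk1b (r 0.978, 0.969 and 0.969). Tmprss2, a transmembrane serine protease, also came first for Upk3a (r 0.982), before Ssbp2 and Ly6k (r 0.980 and 0.978). For Upk3b they were Tigit, Krt23 and Zbtb32 (r 0.985, 0.981 and 0.977). Within KO and within WT, r with Upk3b was 0.060 and 0.785 for Tigit, 0.277 and -0.312 for Krt23, and 0.815 and 0.618 for Zbtb32.

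The neighbours of the members were looked up after the values of the members were known, and those named were chosen after theirs were seen. Distances are between RefSeq gene bounds, which differ from the GENCODE spans given above for some genes, Upk3b among them. Of 20 neighbours, 2 on each side of a member, 13 were tested in total RNA, 4 were called higher and 2 lower in KO, and the median log2 change was 0.08. Of all genes, 27.0% were called higher and 26.3% lower there. Zbtb32, a zinc finger gene 0.273 kb from Upk1a, rose by a log2 change of 2.28 in KO total RNA (SE 0.11, adjusted p = 1.96e-08 by edgeR). Cox6b1, on the other side of Upk1a, had a log2 difference of 0.02 (SE 0.04, adjusted p = 0.722). Upk3bl, a uroplakin-like gene 12.3 kb from Upk3b, rose as well. Rasa4, next to it, fell by 0.86 on the log2 scale (SE 0.05, adjusted p = 7.34e-08). The other called neighbours were Nup50 beside Upk3a (0.19), Dtx2 beside Upk3b (0.20) and Arhgap31 beside Upk1b (-0.60). Whether reads run on from Upk1a into Zbtb32 was not tested.

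Upk3bl was the member of the list of uroplakin-like relatives that matched by symbol. It had 38.2, 35.7 and 40.4 CPM in KO total RNA, against 19.0, 13.4 and 13.8 CPM in WT (log2 1.33, SE 0.12, adjusted p = 2.28e-06 by edgeR). It was also called higher in KO polysomes (1.55) and KO subpolysomes (1.48). Unlike Upk3b, it was richer in polysomes than in subpolysomes in KO (0.81, SE 0.19, adjusted p = 0.000775) and in WT (0.72, SE 0.19, adjusted p = 0.00254).

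Genes that carry, regulate or accompany uroplakins were read from lists. In total RNA 26.3% of all genes were called lower in KO, beside the 27.0% called higher. Of 10 transport partners, 4 rose and 2 fell, with a median log2 change of 0.07. Snx31, a sorting nexin that binds uroplakins on endosomes, had 36.8 ± 6.22 CPM in KO and 7.21 ± 0.749 CPM in WT total RNA (SD, n = 3 each; log2 2.38, adjusted p = 2.88e-08 by edgeR). Rab27a and Rab27b, GTPases of vesicle docking, rose by 1.80 and 0.95 on the log2 scale, and Mal, a protein of apical vesicle fusion, by 0.65. Myo5b, an actin motor, fell by 0.31, and Rab8a by 0.14.

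Of 12 urothelial transcription factors, 11 rose in KO total RNA and none fell, with a median of 0.49. Pparg, the nuclear receptor that drives urothelial differentiation with Rxra, had 70.0 ± 4.70 CPM in KO and 30.5 ± 2.18 CPM in WT (SD, n = 3 each; log2 1.23, adjusted p = 3.01e-08 by edgeR). Grhl3 rose by 0.89 and Klf4 by 0.91. The list also holds Trp63, a basal factor, which rose by 0.53. Foxa1 had a log2 difference of 0.04 (adjusted p = 0.474). In polysomes 10 of 12 were called higher and none lower, where 14.9% of all genes were called higher and 13.8% lower. In subpolysomes 9 of 12 were called higher and none lower, where 11% of all genes were called higher and 11% lower.

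Luminal keratins and junction genes did not move as one. Of 14, 7 rose and 3 fell in KO total RNA, with a median of 0.13. Psca, a surface antigen, rose by 1.56, Krt8, a simple-epithelium keratin, by 1.17 and Tjp1, a tight junction scaffold, by 0.45. Krt20, a keratin of umbrella cells, had 1.25 ± 0.498 CPM in KO and 5.44 ± 0.264 CPM in WT (SD, n = 3 each; log2 -2.10, adjusted p = 1.28e-05 by edgeR). It ran opposite to the uroplakins in these libraries.

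Tetraspanins other than uroplakins moved in both directions. Of 29, 23 were tested in total RNA, 10 rose and 11 fell, with a median of 0.04. Tspan15 rose by 1.79 and Tspan8 by 1.04, while Tspan2 had 2.48 ± 0.199 CPM in KO and 12.9 ± 0.912 CPM in WT (SD, n = 3 each; log2 -2.36, adjusted p = 8.71e-09 by edgeR). Upk1a at 1.71 lay between Tspan15 and Tspan8, and Upk1b at 1.01 just under Tspan8.

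**Figure D4:**
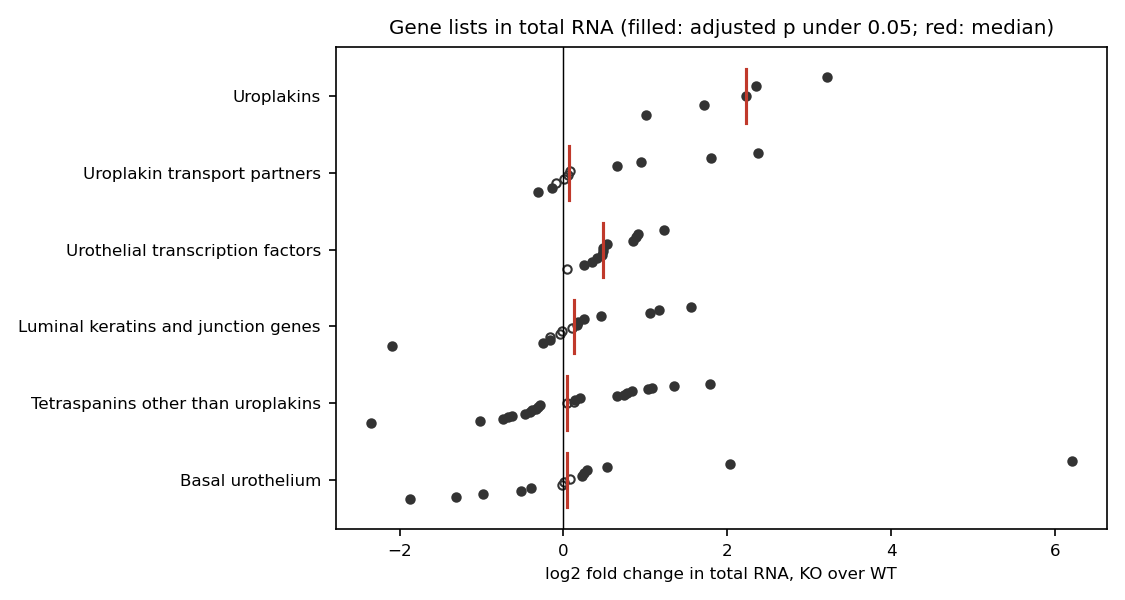
Log2 fold change in total RNA, KO over WT, of the uroplakins and of genes in 5 lists; filled points passed at an adjusted p under 0.05, open points did not, and red lines are list medians. All 5 uroplakins and 11 of 12 transcription factors lie to the right of 0 as filled points, and the other lists spread to both sides.

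Markers of layers and of other cell types were read in the same libraries, where 27.0% of all genes were called higher and 26.3% lower in KO total RNA. Of 14 basal markers, 6 rose and 5 fell in KO total RNA (median 0.05). Shh, a signal made by basal cells, had 10.7 ± 0.771 CPM in KO and 0.144 ± 0.105 CPM in WT (SD, n = 3 each), and Ngfr rose by 2.04. Krt17 fell by 1.87 and Krt16 by 1.31. Their summed level was 13500 to 14600 CPM in KO and 12800 to 15100 CPM in WT. Of 11 umbrella and luminal markers without uroplakins, which overlap the factor and keratin lists, 8 rose and 2 fell; their sum was 5100 to 5490 CPM in KO and 4680 to 4890 CPM in WT. Of 11 squamous markers in the files, 10 were tested, 2 rose and 5 fell, with sums of 715 to 757 CPM in KO and 646 to 686 CPM in WT.

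Mesothelium, which also uses Upk3b and Upk1b, was read from 8 genes. Only Msln and Bnc1 reached a mean of 1 CPM in KO or WT total RNA: Msln rose by 1.05 and Bnc1 fell by 0.94. The list summed to 305 to 337 CPM in KO and 217 to 236 CPM in WT. Msln had 272 ± 14.8 CPM in KO and 134 ± 4.37 CPM in WT (SD, n = 3 each). Among the list's other markers, Lrrn4 and Gpm6a had 0 counts in every total RNA library of primary organoids, and Wt1 reached at most 0.0212 CPM in KO and 0 in WT. The part of Msln-expressing cells in the Upk3b difference was not tested.

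Stromal and blood cell markers were read too. Endothelial markers summed to 0.435 to 0.680 CPM in KO and 0.365 to 0.945 CPM in WT, with Kdr at 0 and 0 of 1 tested marker called. Immune markers summed to 17.7 to 19.7 CPM in KO and 8.38 to 10.1 CPM in WT, with Ptprc at 0 in both. Cd68 rose by 1.11. Cd74 fell by 4.21 but at low levels, 0.0109 to 0.0331 CPM in KO and 0.245 to 0.617 CPM in WT. Fibroblast markers summed to 24.7 to 34.4 CPM in KO and 72.9 to 75.6 CPM in WT, with Col1a2 and Lum at 0 in both; Vim fell by 1.30 and Col1a1 by 1.26. Smooth muscle markers summed to 16.1 to 17.5 CPM in KO and 4.95 to 5.57 CPM in WT, of which Acta2 rose by 1.71. The part of these differences in the uroplakin changes was not tested.

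In cancer organoids the uroplakins, Upk1b apart, were at or near 0. Upk2, Upk3a and Upk3b had 0 counts in all 4 libraries, and Upk1a had 4 and 10 counts in those labelled KO 1 and 2 and 4 and 5 in those labelled WT 1 and 2. Upk1b had 15 and 1101 counts in the libraries labelled KO 1 and 2, and 203 and 19 counts in those labelled WT 1 and 2. It was thus well counted only in the libraries labelled KO 2 and WT 1. Its level was 0.269 and 17.6 CPM under the KO label, against 3.38 and 0.314 CPM under the WT label.

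Compared with primary total RNA in edgeR, where 39.0% of 14305 genes were called lower and 38.8% higher in cancer organoids, all 5 were called lower. Cancer and primary libraries did not overlap for any of them, a description given without the share of all genes, which was not counted. On CPM of library totals, Upk1a was at 0.111 (exact Poisson 95% interval 0.0705 to 0.167, counting error only) over the 4 cancer libraries, 2320-fold lower than in primary KO and 699-fold lower than in primary WT. Upk1b was at 6.47, 27.4-fold lower than in KO and 13.5-fold lower than in WT (edgeR log2 -4.66, SE 1.03, adjusted p = 0.00330). The library labelled KO 2 held 1101 of these 1338 Upk1b counts. Without it Upk1b was at 1.57 CPM, 113-fold lower than in KO and 55.6-fold lower than in WT, and the edgeR log2 difference was -7.18. The folds pool counts against each primary genotype. The edgeR values set the mean log level of both cancer groups against that of both primary groups, so they are not the log2 of these folds. Over all alternatives the log2 difference of Upk1b ran from -7.18 to -3.74, with adjusted p of at most 0.0307 by edgeR or DESeq2.

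For the members at 0 only bounds can be given, taking as limit 3 counts over the 4 cancer libraries (0.0145 CPM), a one-sided limit. The upper end of the exact two-sided Poisson 95% interval is 0.0178 CPM, which would make each bound lower. Upk2 was at least 1010-fold lower than in primary KO and at least 214-fold lower than in primary WT. Upk3a was at least 7170-fold lower than in primary KO and at least 1380-fold lower than in primary WT. Upk3b was at least 3660-fold lower than in primary KO and at least 388-fold lower than in primary WT. Without the libraries labelled KO 1 and WT 2, all 5 uroplakins were still called lower. The cancer libraries form a set of their own, so the cancer state and that set cannot be told apart.

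Between the libraries labelled KO and WT in the cancer set, 0.0% of 12681 genes passed in edgeR. DESeq2 called 11 genes, and 96 had an unadjusted p under 0.05. Upk1b was the 1 uroplakin tested (log2 2.28, SE 2.14, adjusted p = 1.00). Its direction turned to -2.77 without the library labelled KO 2, and since Arid1a goes against 2 of the labels no direction is drawn. Upk1b was high in the libraries labelled KO 2 and WT 1, which were the ones low in Arid1a. Upk3bl was high in the others, at 32.5 and 3.29 CPM in those labelled KO 1 and 2 and 3.50 and 32.7 CPM in those labelled WT 1 and 2.

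Part of the lists was lower in cancer organoids too. Of all genes, 39.0% were called lower and 38.8% higher in this comparison. In cancer organoids 8 of 10 transport partners were called lower and 1 higher, with Snx31 at 0 counts in all 4 libraries. Of 11 umbrella and luminal markers 10 were lower and none higher, and their sum was 126 to 286 CPM in cancer libraries. Of 12 transcription factors 6 were lower and 3 higher: Pparg fell by 4.35 on the log2 scale (adjusted p = 0.00101) and Trp63 rose by 1.34 (adjusted p = 0.000127). Of 14 basal markers 9 were higher and 2 lower, among them Krt14, which rose by 1.56. Krt5 had a log2 difference of -0.11 (SE 0.11, adjusted p = 0.408).

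Squamous markers moved with these changes: all 11 in the files were called, 8 higher and 3 lower in cancer organoids, with a median log2 change of 5.49. Of all genes, 77.8% were called there in either direction. Krt1, a keratin of differentiating epidermis, was at 44.9 to 453 CPM under the KO label and 110 to 604 CPM under the WT label, against 1.28 to 1.68 CPM in primary KO and 3.00 to 10.1 CPM in primary WT total RNA. Sprr3, a cornified envelope gene, fell by 4.98 on the log2 scale. The squamous sum was 2590 and 397 CPM in the libraries labelled KO 1 and 2, and 424 and 2360 CPM in those labelled WT 1 and 2, against 646 to 757 CPM in primary total RNA. It was thus above the primary range in 2 cancer libraries and below it in the other 2. The part of squamous cells in the uroplakin difference was not tested.

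**Figure D5:**
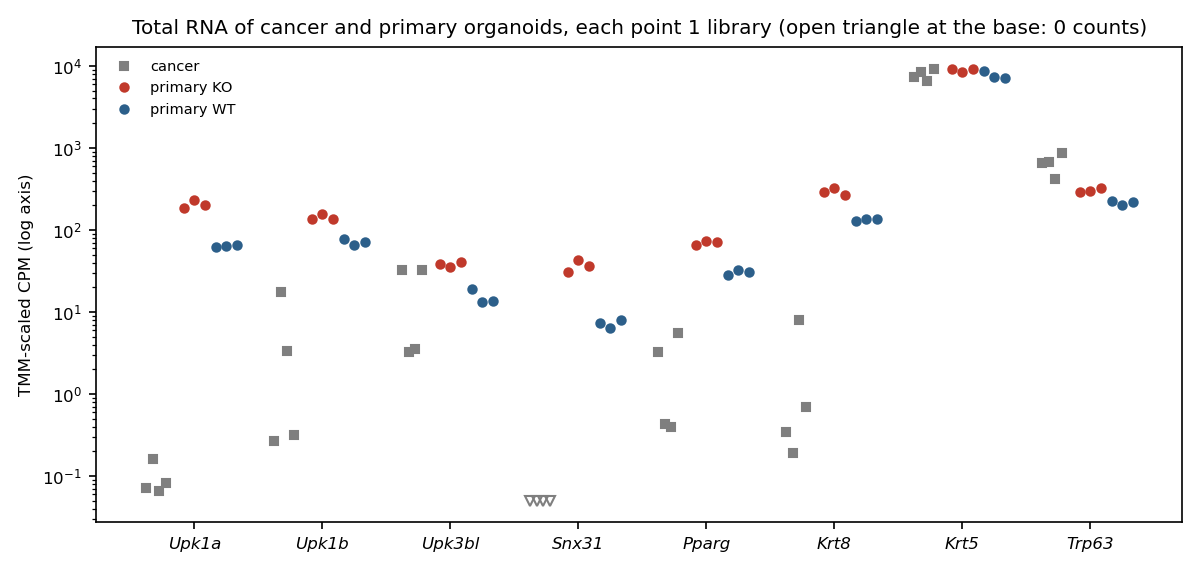
TMM-scaled CPM (log axis) of selected genes in total RNA of cancer organoids (4 libraries, grey), primary KO (3, red) and primary WT (3, blue); open triangles at the base are libraries with 0 counts. Upk1a, Upk1b, Snx31, Pparg and Krt8 are lower in cancer libraries, Krt5 lies at a like level in all, and Trp63 is higher.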

How the data were processed

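The deposited values were raw counts per gene symbol, whole numbers, 1 file for each of the 22 libraries. Per the submitters' processing notes the authors counted reads with HTSeq on mm10, and named Bowtie for the primary libraries; the sources used here give no versions, strand setting or handling of reads matching several places. Each of 11 comparisons had its own fit, on its own libraries, in edgeR 4.0.16 under R 4.3.3 (TMM, filterByExpr, quasi-likelihood F test, Benjamini-Hochberg adjustment over all genes tested, threshold 0.05). DESeq2 1.42.0 was an alternative. Levels per length used exon unions of GENCODE vM21. Members, gene lists, motifs and alternatives were chosen with earlier results of these data known. Named genes were the members, Arid1a, the 3 genes of highest correlation with each member, and the 3 list members of smallest p; others, such as Krt20, Foxa1, Mal, Myo5b, Rab8a and Krt16, and the cancer examples, were chosen after their values were seen. Libraries of a group differed by 12.3 to 260 times the sampling noise (chi-square over degrees of freedom), so none was counted as a copy. Same-numbered libraries had deviations correlating above 0.1 in every pair for polysomes KO against WT (0.263 to 0.489). The same held for polysomes against subpolysomes in KO (0.126 to 0.301) and WT (0.112 to 0.400), and for polysomes against total RNA in KO (0.124 to 0.303). Libraries of different number were not correlated, so whether the numbers pair libraries was not tested. Count intervals and bounds cover counting error only.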

Additional observations from a re-analysis of the deposited data

How the results depend on the processing

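All 5 uroplakins stayed called higher in KO in total RNA, polysomes and subpolysomes, and lower in cancer organoids, under every alternative run. In total RNA the log2 change ranged from 0.94 to 1.08 for Upk1b and from 3.10 to 3.29 for Upk3b. The number of genes called in total RNA was 7025, and 3784 when all 18 primary libraries were fitted together. For the polysome to subpolysome ratio between genotypes 1 gene was called, against 12 with DESeq2, 29 with no filter, 13 with the replicate block, 6 with all 18 primary libraries and 0 to 4 leaving out 1 library. In the cancer set DESeq2 called 11 genes in place of 0; 0 were called with the replicate block, and 0 with crossed replicate numbers, tried after seeing the data because same-numbered libraries deviated oppositely (-0.427). Upk3b in polysomes against subpolysomes turned to 0.643 (KO) and 0.719 (WT) with library totals, and ranged from -0.188 to 0.057 in WT leaving out 1 library. Upk3a in the ratio between genotypes turned to 0.018 with library totals and ranged from -0.232 to 0.188 leaving out 1 library. In the polysome to total RNA ratio between genotypes, values near 0 changed sign leaving out 1 library, from -0.147 to 0.165 for Upk1a, -0.235 to 0.173 for Upk3a and -0.108 to 0.077 for Upk3b. Upk1b between cancer labels ranged from -2.77 to 4.82 leaving out 1 library. In polysomes against total RNA, Upk3b passed with the replicate block (KO 0.227, adjusted p = 0.0449, and WT 0.257, adjusted p = 0.0406, by edgeR). The WT libraries there did not correlate above 0.1 in every same-numbered pair. Upk3b also passed there without KO polysome replicate 1 (0.338 in KO, 0.261 in WT). The block changed no other call of a uroplakin. Same-numbered libraries did not all deviate together in total RNA (-0.165 to 0.376) or in subpolysomes (0.097 to 0.139). Over all 22 libraries, 0 of the 3 genes most like Upk1a, Upk1b and Upk3a, and 1 of 3 for Upk2 and Upk3b, were the same. The cause of these changes was not tested. Depth limits Upk2 among the primary libraries, with 71 to 86 counts in WT subpolysomes, and in the cancer libraries every member but Upk1b, at 0 to 10 counts. It also limits Upk1b in the cancer libraries labelled KO 1 (15 counts) and WT 2 (19 counts).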
